A study of Mus musculus with 15 samples.

Results

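Replication-dependent histone genes encode the bulk of the core histones H2A, H2B, H3 and H4 and the linker histone H1. Probes were chosen by name and by detection score: those whose platform symbol follows the current names of these genes (H1f1 to H1f6, H2ac, H2bc, H3c and H4c with a number, or the older Hist names) with a detection score above 0.95 on at least 3 of 15 arrays. Of 57 probes so named (48 genes), 41 probes (36 genes) met the rule, out of 24606 targets measured and 14154 probes that passed the same detection rule. The set was picked with earlier results of these arrays known.

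The arrays held RNA from primary cortical neurons of Swiss albino mice, dissected on gestation day 15 to 16 and kept in culture for 5 days. The arrays fall into 4 groups: 6 control arrays with a treatment time of 0, and 3 arrays for each time in 100 µM kainate (5 h, 15 h and 24 h), a glutamate analogue that opens kainate and AMPA receptors. The controls are called vehicle in the series description, while their agent label reads none. No genotype, transgene or allele is named for any group. Mixed primary cultures also hold other cells, so that in such bulk RNA a change in the number of cells of a type and a change in RNA per cell cannot be told apart.

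Nucleosomes are built from pairs of the 4 core histones around DNA, and H1 binds the linker DNA between them. Replication-dependent histone genes lie in clusters and are transcribed mainly in S phase, when new chromatin is assembled. Their mRNAs normally end in a stem-loop in place of a poly(A) tail, a form made with the stem-loop binding protein Slbp and the U7 snRNP. Some of these genes also give polyadenylated transcripts, which are known from differentiated cells. The cRNA of these arrays was made with a kit that primes on poly(A) tails, so the levels below are those of transcripts that were primed in this way. Their relation to stem-loop histone mRNA was not measured.

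The histone members rose in kainate. At 5 h 34 of the 41 probes rose and 0 fell, against 17.9% of all 14154 probes that rose and 20.8% that fell. At 15 h 35 rose and 0 fell (21.8% of all probes rose and 23.4% fell), and at 24 h 34 rose and 1, H4c14 near the limit of detection, fell (21.1% and 21.9% of all probes). The median log2 change of the members was 0.90 at 5 h, 1.43 at 15 h and 1.36 at 24 h, while the median of all probes tested lay at -0.03, -0.03 and -0.01. Rose and fell refer to a Benjamini-Hochberg adjusted p below 0.05 in limma's moderated test over all 14154 probes. A member detected only in some groups may have entered the set through a difference between them. The 36 probes detected on all 15 arrays are therefore the cleaner count. Of these 33 rose at 5 h, 33 at 15 h and 32 at 24 h, and 0 fell at any of these times. Limma's F test for a change at any time was passed by 35 members (61.2% of all probes).

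Large changes were frequent among them. A rise of 2-fold or more was reached by 19 members at 5 h (2.55% of all probes), 29 at 15 h (4.76%) and 26 at 24 h (3.72%). A rise of 4-fold or more was reached by 4 members at 5 h (0.445%), 15 at 15 h (0.572%) and 12 at 24 h (0.551%). All 3 kainate arrays lay above all 6 controls for 35 members at 5 h (16.2% of all probes), 34 at 15 h (20%) and 32 at 24 h (16.7%). Higher at all of the 3 times were 33 members (8.82%).

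The genes lie at 3 places of the mouse genome (GRCm38.p6). On chromosome 13, 15 members fall between chr13:21715711-22043658 and 19 members between chr13:23531044-23934156. The other 7 lie at chr3:96220413-96263317. All 15 probes of the first chromosome 13 stretch rose at each time, with median log2 changes of 1.21 at 5 h, 1.97 at 15 h and 1.74 at 24 h. In the second stretch 15, 17 and 16 of 19 rose, with medians of 0.91, 1.48 and 1.38. On chromosome 3 only 4, 3 and 3 of 7 rose, with medians of 0.48, 0.09 and 0.12. The difference between the places was not tested.

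Promoter sequences are shown for genes on which the results below turn. For H1, H2B, H3 and H4 it is the gene with the smallest F test p (H1f2, H2bc11, H3c11 and H4c1). Only genes with an entry that were detected on all arrays were eligible. H2bc22, which faces H2ac22 across a shared promoter, is also shown. So is H2ac18, which did not pass the test against control at any time in the main fit. Each window holds 300 bases from RefSeq (GRCm38.p6), 250 before and 50 after the annotated start, read 5′ to 3′ on the gene's strand. Capitals mark matches on either strand to TATAAA (the TATA box), CCAAT (the CCAAT box), ATTTGCAT (the octamer known from H2B promoters), AAACACA (the H1 box), TTTCGCGC (an E2F site), TGACTCA (AP-1 site) or TGACGTCA (the cAMP response element). No motif of this list contains another. The windows are chr13:23738557-23738856 (plus strand) for H1f2, chr13:22042948-22043247 (plus) for H2bc11, chr13:21783348-21783647 (minus) for H3c11, chr13:23761200-23761499 (minus) for H4c1, chr13:21787238-21787537 (plus) for H2bc22 and chr3:96245247-96245546 (plus) for H2ac18.
H1f2: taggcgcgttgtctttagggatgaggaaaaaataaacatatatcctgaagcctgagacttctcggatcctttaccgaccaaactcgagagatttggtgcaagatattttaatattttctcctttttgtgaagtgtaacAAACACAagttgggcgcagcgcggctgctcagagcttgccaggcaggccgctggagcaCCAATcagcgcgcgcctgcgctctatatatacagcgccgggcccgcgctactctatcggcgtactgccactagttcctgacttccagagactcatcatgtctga
H2bc11: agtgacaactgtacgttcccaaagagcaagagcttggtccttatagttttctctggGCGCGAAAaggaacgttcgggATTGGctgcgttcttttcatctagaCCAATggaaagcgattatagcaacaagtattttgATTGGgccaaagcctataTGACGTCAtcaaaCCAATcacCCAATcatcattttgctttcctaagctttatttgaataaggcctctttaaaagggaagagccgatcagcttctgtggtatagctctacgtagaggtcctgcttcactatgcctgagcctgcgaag
H3c11: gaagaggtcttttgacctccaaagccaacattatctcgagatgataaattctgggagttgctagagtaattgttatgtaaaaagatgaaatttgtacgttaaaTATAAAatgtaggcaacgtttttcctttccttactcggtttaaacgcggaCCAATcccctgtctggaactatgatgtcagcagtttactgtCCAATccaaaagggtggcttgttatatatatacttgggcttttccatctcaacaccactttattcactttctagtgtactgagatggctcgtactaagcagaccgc
H4c1: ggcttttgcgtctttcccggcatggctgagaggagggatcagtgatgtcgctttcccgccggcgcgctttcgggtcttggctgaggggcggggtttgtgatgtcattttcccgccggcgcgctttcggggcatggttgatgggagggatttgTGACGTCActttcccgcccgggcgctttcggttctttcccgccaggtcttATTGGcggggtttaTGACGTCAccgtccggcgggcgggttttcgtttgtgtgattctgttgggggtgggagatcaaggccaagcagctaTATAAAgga
H2bc22: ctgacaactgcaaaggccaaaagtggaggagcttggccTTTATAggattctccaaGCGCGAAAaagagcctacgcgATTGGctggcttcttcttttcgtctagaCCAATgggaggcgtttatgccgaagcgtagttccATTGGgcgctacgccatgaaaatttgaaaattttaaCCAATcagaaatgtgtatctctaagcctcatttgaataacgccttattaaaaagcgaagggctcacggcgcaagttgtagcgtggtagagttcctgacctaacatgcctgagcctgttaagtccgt
H2ac18: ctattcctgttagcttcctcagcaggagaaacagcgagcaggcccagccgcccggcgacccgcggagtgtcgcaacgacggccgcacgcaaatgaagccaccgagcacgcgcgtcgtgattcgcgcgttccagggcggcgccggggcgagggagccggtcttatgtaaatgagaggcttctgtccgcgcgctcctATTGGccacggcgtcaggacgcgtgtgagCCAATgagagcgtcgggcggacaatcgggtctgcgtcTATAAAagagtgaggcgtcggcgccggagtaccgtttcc

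A window was given for 33 of the 36 member genes, out of 32851 windows in all. CCAAT was found in 27 of the 33 histone windows (81.8%), against 37.4% of all windows. TATAAA was found in 20 (60.6%, against 13.6%) and TTTCGCGC in 7 (21.2%, against 0.323%). ATTTGCAT was found in 6 (18.2%, against 1.74%), 3 of them H2B and 3 H2A genes. Windows of genes that face each other overlap, so the same stretch can count for both. ATTTGCAT was found in both genes of the pairs H2ac12/H2bc12 and H2ac8/H2bc8, and TTTCGCGC in both of H2ac22/H2bc22 and H2ac12/H2bc12. TGACGTCA was found in 3 (9.09%, against 1.79%), namely H2bc11, H4c8 and H4c1, and AAACACA in 2 (6.06%, against 7.18%), namely H1f2 and H2bc1. TGACTCA was found in 0 of 33 (5.2% of all windows). By class, CCAAT stood in the window of the 1 H1 gene, all 9 H2A, all 10 H2B, all 4 H3 and 3 of 9 H4 genes. H2ac18, which did not pass the test against control in the main fit, had matches to TATAAA and CCAAT, as H3c11 and H2bc22 did. Matches counted at any position and on either strand. The TATAAA match lay after the annotated start in H2ac18 and H4c1, and before it in H3c11 and H2bc22. In H2bc22 it lay on the opposite strand. The matches of these genes are thus not alike in place. A match is a run of letters and not a measured site.

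H1f2, a linker histone, was the only H1 gene with a detected probe, of 6 H1 probes on the array. Levels here are log2 normalised intensities, and a level cannot be set against that of another probe. The H1f2 probe read 8.52 to 9.74 on the 6 controls (median 8.89), then 10.16, 10.31 and 10.09 at 5 h, 11.10, 11.01 and 11.10 at 15 h and 10.95, 10.98 and 11.15 at 24 h. Every kainate array lay above every control, and the 5 h arrays lay below those of both later times. H1f2 rose by 1.13 ± 0.20 at 5 h (log2 ± SE, adjusted p = 4.175e-04), 2.01 ± 0.20 at 15 h (7.598e-07) and 1.97 ± 0.20 at 24 h (1.098e-06). These correspond to 2.20-fold, 4.04-fold and 3.92-fold, and the step between 5 h and 15 h was 0.88 ± 0.24 (adjusted p = 0.00931). This step did not pass under median centring (0.63, adjusted p = 0.0865) or with the authors' ratios (0.65, adjusted p = 0.0612). With a block term shared by the 5 h arrays and control replicates 1 and 3, it was 1.76 and the 5 h change 0.55. No label groups these arrays, which lie on 3 beadchips. With this term the 5 h change is taken against control replicates 1 and 3 alone.

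**Figure D1:**
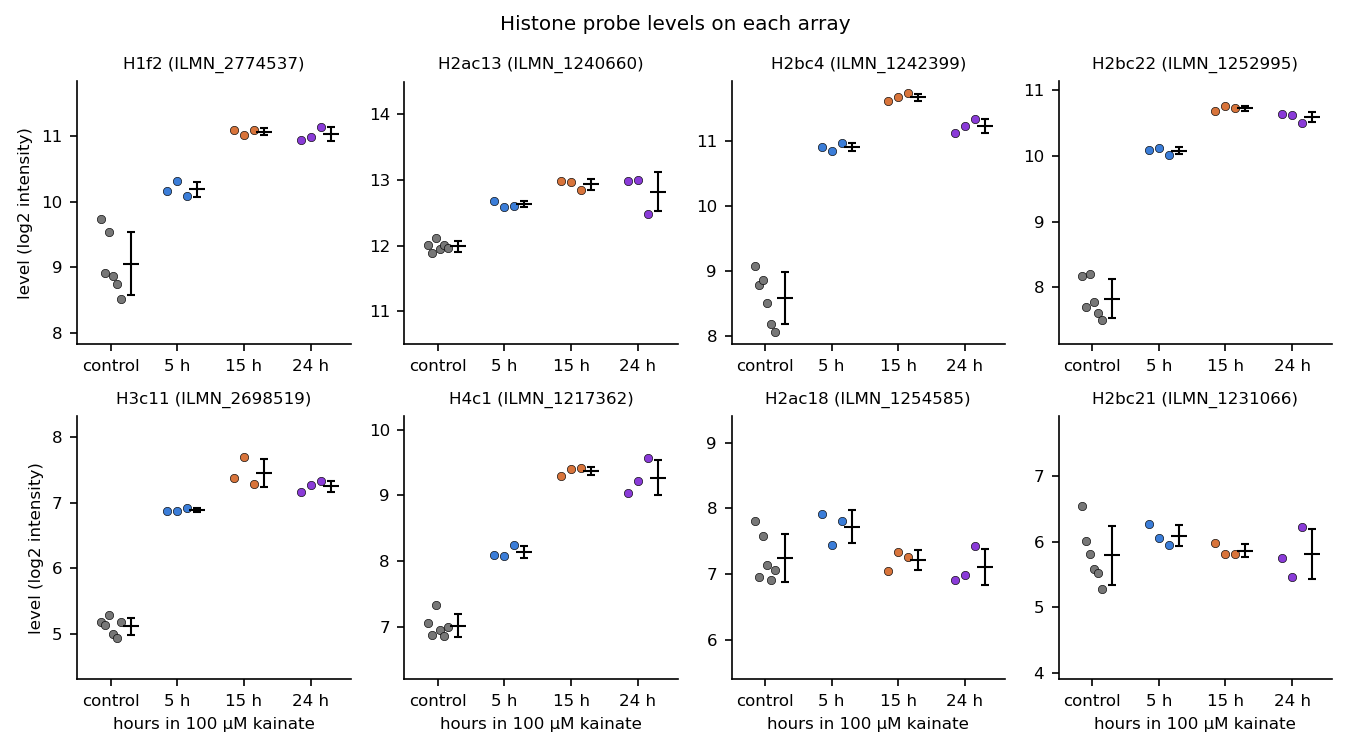
Levels (log2 normalised intensity) of 8 histone probes on each of the 15 arrays, by group, with mean and SD beside the points; every panel spans at least 4 log2 units. In H1f2, H2bc4, H2bc22, H3c11 and H4c1 all kainate arrays lie above all 6 controls, while H2ac18 and the H2bc21 probe ILMN_1231066 overlap with them.

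H2B, which pairs with H2A in the nucleosome, had the largest class medians. Of 14 probes (12 genes) 12 rose at each of the 3 times, and the class medians were 1.78, 2.64 and 2.30. H2bc4, the H2B probe with the highest mean level, read 8.05 to 9.08 on the controls (median 8.64), 10.91, 10.85 and 10.97 at 5 h, 11.62, 11.68 and 11.74 at 15 h and 11.13, 11.24 and 11.35 at 24 h. It had the largest change of all members, 3.11 ± 0.18 at 15 h (8.62-fold, adjusted p = 1.253e-09), after 2.34 ± 0.18 at 5 h. No kainate array of H2bc4 came within the control range.

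H2bc22 read 7.51 to 8.20 on the controls (median 7.74), 10.09, 10.12 and 10.02 at 5 h, 10.69, 10.76 and 10.73 at 15 h and 10.64, 10.63 and 10.51 at 24 h. The 4 groups did not overlap, and those at 15 h and 24 h lay close together. The change was 2.25 ± 0.14 at 5 h, 2.90 ± 0.14 at 15 h and 2.76 ± 0.14 at 24 h (4.76-fold, 7.45-fold and 6.79-fold). H2bc11 read 7.33 to 7.97 on the controls (median 7.52), 9.43, 9.34 and 9.41 at 5 h, 10.36, 10.45 and 10.49 at 15 h and 10.09, 10.18 and 10.34 at 24 h. Here the 5 h arrays formed a step between controls and later times, with a rise of 1.80 ± 0.12 at 5 h, 2.84 ± 0.12 at 15 h and 2.61 ± 0.12 at 24 h. The step between 5 h and 15 h was 1.04 ± 0.14 (adjusted p = 5.317e-05), the largest among the H2B probes.

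H2bc9 read 6.38 to 7.18 on the controls (median 6.67), 8.75, 8.65 and 8.75 at 5 h, 9.46, 9.52 and 9.47 at 15 h and 9.02, 9.15 and 9.59 at 24 h. The H2bc13 probe read 6.60 to 7.30 on the controls (median 6.95), 8.72, 8.69 and 8.74 at 5 h, 9.61, 9.55 and 9.71 at 15 h and 9.12, 9.27 and 9.62 at 24 h. For H2bc15 the levels were 6.83 to 7.56 on the controls (median 7.17), 9.06, 9.0 and 8.95 at 5 h, 9.78, 9.82 and 9.81 at 15 h and 9.23, 9.32 and 9.73 at 24 h. All 3 of these H2B genes kept every kainate array above every control, and in each the third 24 h replicate was the highest of its group. Their changes at 15 h were 2.79 ± 0.15, 2.66 ± 0.14 and 2.61 ± 0.14.

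H2bc7 was measured by a pair of probes. ILMN_2742592 read 7.19 to 8.09 on the controls (median 7.51), 9.64, 9.61 and 9.68 at 5 h, 10.57, 10.62 and 10.65 at 15 h and 10.13, 10.14 and 10.52 at 24 h. ILMN_2719202 read 7.03 to 7.87 on the controls (median 7.28), 9.32, 9.37 and 9.42 at 5 h, 10.26, 10.15 and 10.24 at 15 h and 9.80, 9.73 and 10.10 at 24 h. Both probes had the same order of groups with no overlap between controls and kainate arrays. They rose by 3.00 ± 0.16 and 2.83 ± 0.15 at 15 h. The target identifier of ILMN_2742592 names H2bc14, a close relative, while that of ILMN_2719202 names H2bc7.

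At 15 h the other H2B probes changed less. H2bc12 rose by 1.76 ± 0.13 at 5 h and 2.28 ± 0.13 at 15 h, H2bc6 by 0.48 ± 0.14 and 1.43 ± 0.14, and H2bc8 by 0.71 ± 0.11 and 0.86 ± 0.11. The 5 h call of H2bc6 was lost without 5 h replicate 2 or 3, with no background correction and with the block term (adjusted p up to 0.063). H2bc21, on chromosome 3, was the gene whose probes disagreed. ILMN_1253851 rose by 0.80 ± 0.11 at 5 h, 1.37 ± 0.11 at 15 h and 1.16 ± 0.11 at 24 h, with no overlap with the controls. ILMN_1231066 had log2 changes of 0.30 ± 0.22, 0.07 ± 0.22 and 0.02 ± 0.22, none past the test (adjusted p = 0.296, 0.816 and 0.946), and overlapped with the controls at every time. H2bc1, the testis-type H2B gene, was detected on 4 arrays only, with log2 differences of -0.14 ± 0.13, -0.10 ± 0.13 and -0.04 ± 0.13 that did not pass the test.

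H3 forms a tetramer with H4 at the core of the nucleosome. All 6 H3 probes (4 genes) rose at each time, with medians of 1.38, 1.91 and 1.60. H3c11 had the smallest F test p of all members (adjusted p = 4.111e-11). Its probe ILMN_2698519 read 4.93 to 5.29 on the controls (median 5.15), 6.87, 6.87 and 6.91 at 5 h, 7.37, 7.69 and 7.29 at 15 h and 7.16, 7.26 and 7.33 at 24 h. The 5 h arrays were nearly equal to each other and stood clear of both the controls and the later times. This probe rose by 1.77 ± 0.10 at 5 h, 2.33 ± 0.10 at 15 h and 2.13 ± 0.10 at 24 h (3.40-fold, 5.04-fold and 4.38-fold), and the second H3c11 probe by 1.51 ± 0.17, 1.97 ± 0.17 and 1.67 ± 0.17.

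H3c2 ILMN_2592253, the brightest H3 probe, read 8.75 to 9.90 on the controls (median 9.27), 10.19, 10.27 and 10.09 at 5 h, 10.67, 10.74 and 10.50 at 15 h and 10.60, 10.25 and 10.58 at 24 h. The controls spread over more than 1 log2 unit, yet all kainate arrays lay above them. It rose by 0.91 ± 0.19, 1.37 ± 0.19 and 1.21 ± 0.19, while the other H3c2 probe rose by 1.56 ± 0.14, 2.12 ± 0.14 and 1.73 ± 0.14. H3c4 rose by 1.25 ± 0.13, 1.85 ± 0.13 and 1.52 ± 0.13, and H3c15, on chromosome 3, by 1.00 ± 0.16, 1.40 ± 0.16 and 1.20 ± 0.16.

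H4 was measured by 11 probes (10 genes), of which 7 rose at 5 h, 9 at 15 h and 8 at 24 h, with medians of 0.69, 1.38 and 1.21. H4c1, the brightest H4 probe, read 6.86 to 7.34 on the controls (median 6.98), 8.10, 8.07 and 8.24 at 5 h, 9.30, 9.40 and 9.41 at 15 h and 9.03, 9.22 and 9.57 at 24 h. Controls, 5 h and the later times formed 3 separate levels. H4c1 rose by 1.12 ± 0.12 at 5 h, 2.36 ± 0.12 at 15 h and 2.26 ± 0.12 at 24 h, and its step of 1.23 ± 0.14 between 5 h and 15 h was the largest of all members (adjusted p = 7.446e-06). H4c8 read 6.39 to 6.81 on the controls (median 6.48), 8.12, 7.91 and 8.02 at 5 h, 9.07, 8.94 and 8.95 at 15 h and 8.54, 8.83 and 9.24 at 24 h. The pattern was that of H4c1, with the 24 h arrays further apart, and the changes were 1.48 ± 0.13, 2.45 ± 0.13 and 2.33 ± 0.13.

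The H4c11, H4c12, H4c6 and both H4c9 probes also rose at all 3 times, by 1.32 to 2.18 at 15 h. H4c4 passed the test at 15 h only, with a log2 change of 0.46 ± 0.12 (adjusted p = 0.00584), and its arrays overlapped with the controls at every time. Without 15 h replicate 1 this call was lost (0.35, adjusted p = 0.0549). The remaining H4 genes were near the limit of detection. H4c3 was detected on 0 of 6 controls, 0 of 3 arrays at 5 h, 3 of 3 at 15 h and 1 of 3 at 24 h. At 15 h its levels were 4.93, 5.00 and 4.74, against 4.34 to 4.51 on the controls, so that at 15 h it was at least 1.07-fold higher. Since detection chose it, no test is read from it, although it counts among the probes that rose at 15 h and 24 h. It also counts among the members above all controls at each time, although at 5 h it was detected on 0 of 3 arrays. Detection of H4c2 covered 7 arrays, and its differences of 0.12 ± 0.16, 0.07 ± 0.16 and -0.05 ± 0.16 did not pass the test. H4c14 was detected on 2 controls, 2 arrays at 5 h and 0 arrays at 15 h and 24 h. Detection chose it likewise, so no test is read from it, although it is the 1 member counted as having fallen at 24 h. Its level at 24 h was not well above background and its arrays overlapped with the controls, so no size of a fall is given. The call was absent under 14 of 24 alternatives (adjusted p = 0.0161 to 0.189 over all 24), among them median centring, an offset of 50 and no detection filter.

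**Figure D2:**
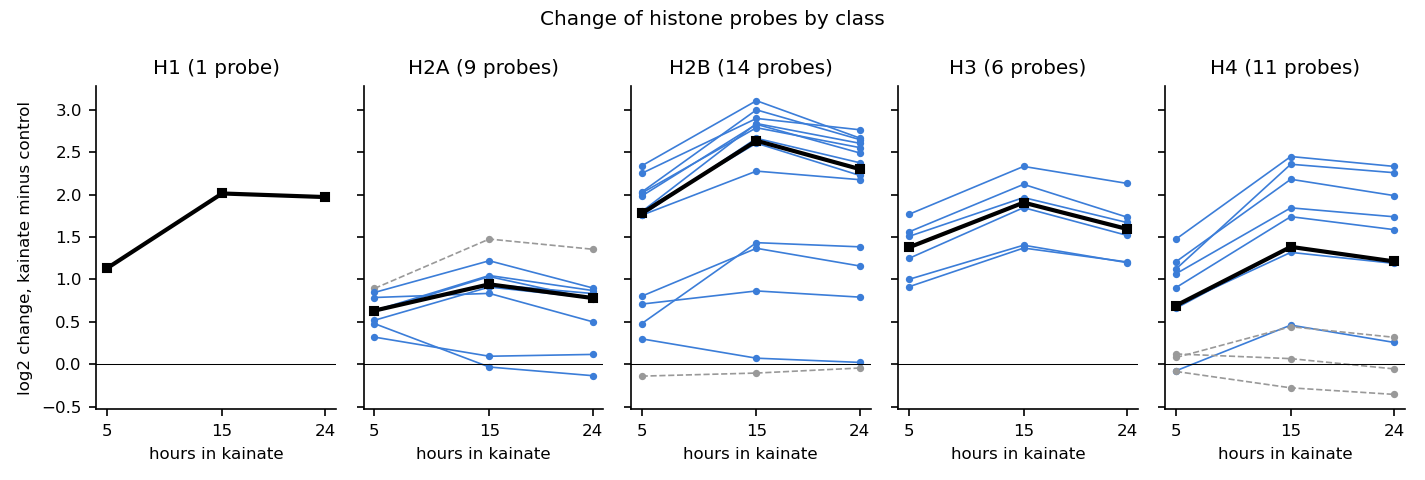
Log2 change (kainate minus control) at 5 h, 15 h and 24 h for every histone probe, in 1 panel per class; thin lines are probes, dashed grey ones those not detected on all 15 arrays, and the black line is the class median. The H2B panel holds a group of 9 probes above 2.2 at 15 h and a second group below 1.5, while the H2A probes stay below 1.5.

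H2A is the partner of H2B in the nucleosome. Of 9 probes 8 rose at 5 h, 7 at 15 h and 7 at 24 h, with medians of 0.63, 0.94 and 0.78. At 24 h 5 rose under median centring (median 0.34) and 5 with the authors' ratios (0.40). H2ac13, the brightest, read 11.88 to 12.12 on the controls (median 11.99), 12.69, 12.59 and 12.61 at 5 h, 12.99, 12.96 and 12.84 at 15 h and 12.97, 13 and 12.49 at 24 h. All kainate arrays exceeded all controls, and the third 24 h replicate lay below its group. The rise was 0.64 ± 0.10, 0.94 ± 0.10 and 0.83 ± 0.10. H2ac23 and H2ac20 rose by 1.05 ± 0.11 and 0.91 ± 0.10 at 15 h, H2ac22 by 1.22 ± 0.15, H2ac10 by 1.03 ± 0.17 and H2ac12 by 0.84 ± 0.16.

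H2ac8, detected on 2 of 6 controls and all 9 kainate arrays, read 4.57 to 5.13 on the controls (median 4.78), 5.66, 5.64 and 5.86 at 5 h, 6.37, 6.32 and 6.22 at 15 h and 6.05, 6.21 and 6.30 at 24 h. It entered the set through the kainate arrays, so its difference is given as a description. It still counts among the members that rose at each time, at 15 h over 5 h and at 24 h over 5 h. The same holds for the counts of 2-fold rises at 15 h and 24 h and of members above all controls. H2ac19, on chromosome 3, rose at 5 h only, by 0.32 ± 0.10 (adjusted p = 0.0203), with 0.09 ± 0.10 at 15 h and 0.12 ± 0.10 at 24 h. The 5 h call of H2ac19 was lost without any 1 of the 3 arrays at 5 h (adjusted p = 0.0506 to 0.0716) and with the block term (0.10, adjusted p = 0.451). H2ac18, its neighbour, read 6.90 to 7.80 on the controls (median 7.10), 7.91, 7.44 and 7.81 at 5 h, 7.04, 7.33 and 7.25 at 15 h and 6.91, 6.98 and 7.42 at 24 h. The groups overlapped at every time, and no change against control passed the test in the main fit (0.48 ± 0.19, -0.03 ± 0.19 and -0.13 ± 0.19). At 5 h the adjusted p was 0.0543 in limma's test. All 9 H2A probes, H2ac18 among them, rose at 5 h under median centring, with the authors' ratios and with no background correction. The same held without control replicates 1 and 3. At 24 h H2ac18 was lower than at 5 h by a log2 difference of -0.61 ± 0.22 (adjusted p = 0.0375). This call was absent under 7 of 25 alternatives: without 5 h replicate 1 or 3, without 24 h replicate 1 or 2, with the beadchip as a fixed block, with no detection filter and with the block term of the 5 h arrays, where the difference was 0.06.

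**Figure D3:**
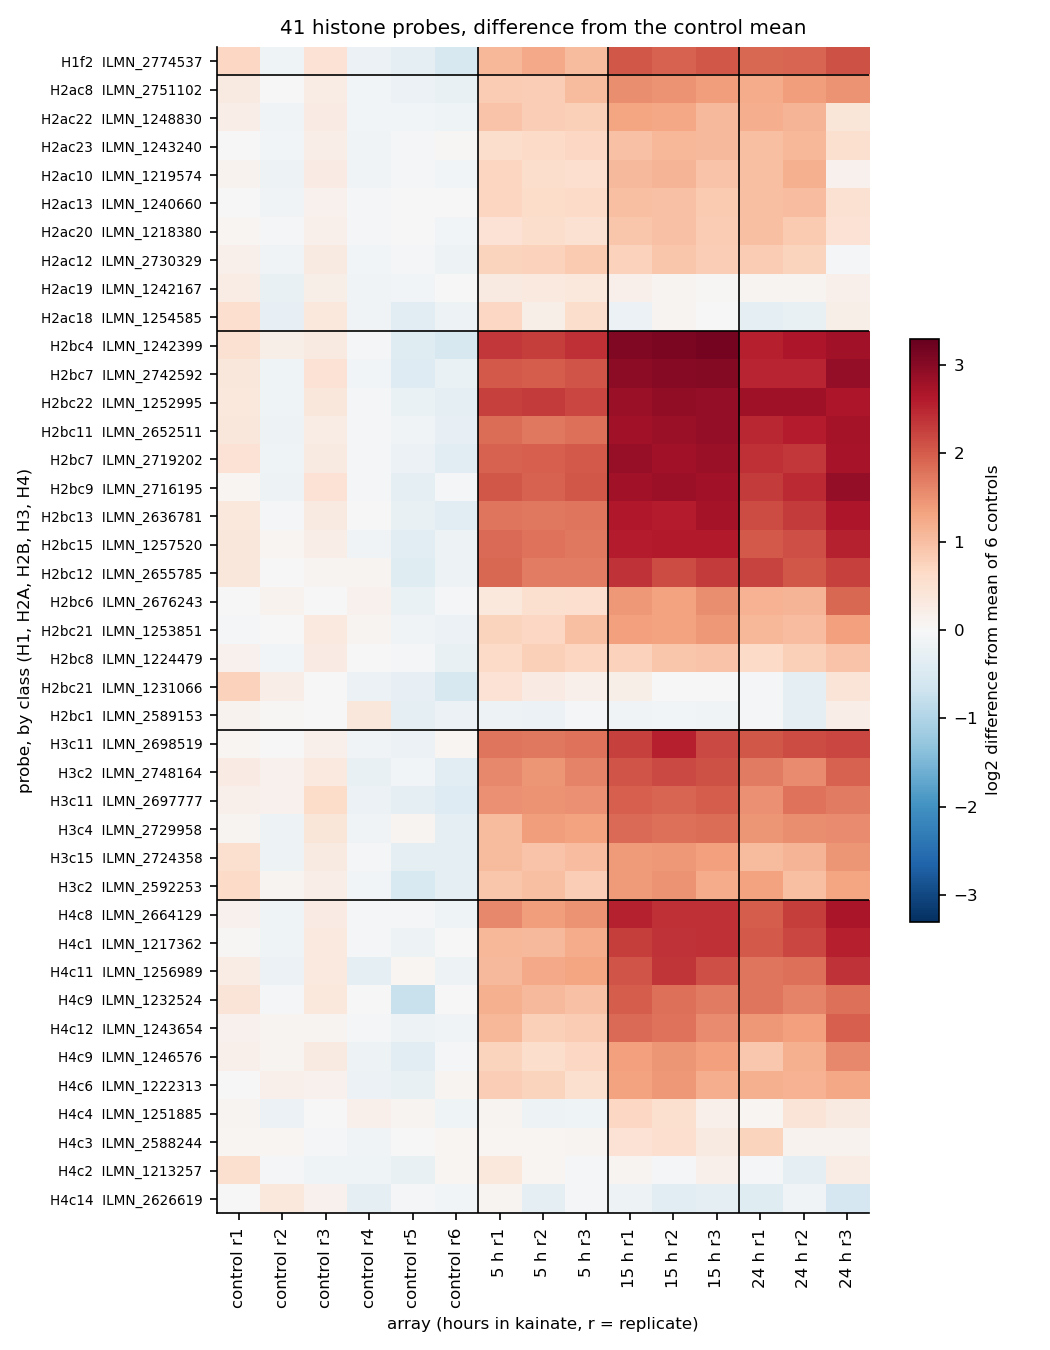
Log2 difference of each of the 41 histone probes (rows, by class) from the mean of the 6 controls on each array (columns, control to 24 h). Red is higher, blue lower. Most rows are red on all 9 kainate arrays, H2B rows the most, and the third 24 h replicate is the lowest of its group in 6 of 9 H2A rows and the highest in 13 of 14 H2B and 8 of 11 H4 rows.

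Paired H2A and H2B genes that face each other across a shared promoter could be set side by side. Windows on opposite strands overlapped for 4 member pairs, by 261 to 279 bases. At 15 h H2bc13 had a log2 change of 2.66 ± 0.14 and H2ac13 of 0.94 ± 0.10. H2bc22 changed by 2.90 ± 0.14 and H2ac22 by 1.22 ± 0.15, and H2bc12 by 2.28 ± 0.13 and H2ac12 by 0.84 ± 0.16. In these 3 pairs the H2B probe had the larger change. In the fourth pair H2bc8 changed by 0.86 ± 0.11, and H2ac8 had a fitted change of 1.48 ± 0.12, which rests on controls of which only 2 of 6 were detected and on a probe that entered through the kainate arrays, so the 2 are not ranked. These are changes of different probes, and the difference within a pair was not tested.

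**Figure D4:**
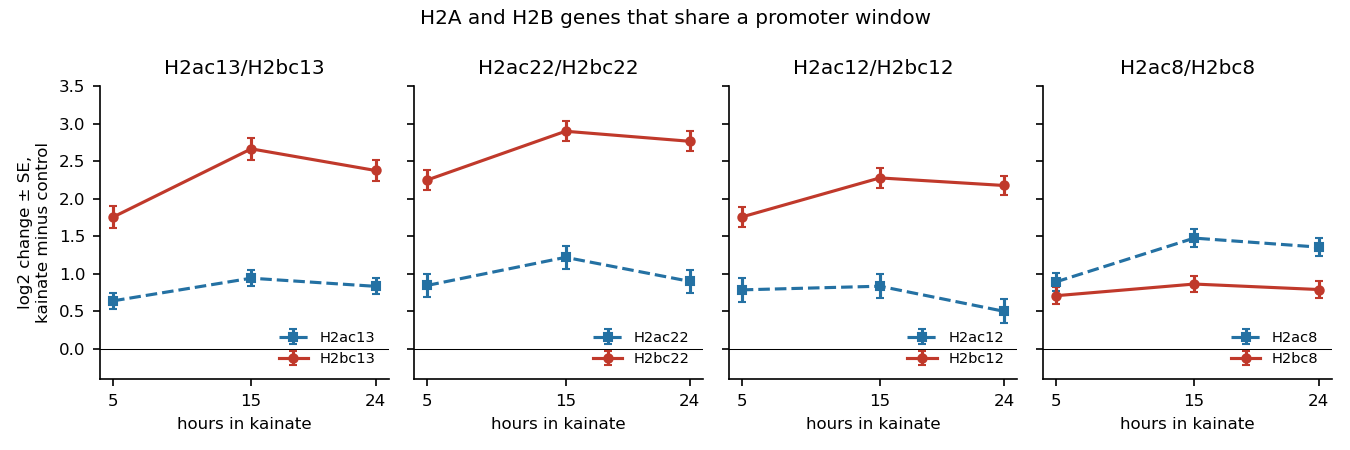
Log2 change ± SE (kainate minus control) at 5 h, 15 h and 24 h for the 4 pairs of H2A (dashed, squares) and H2B (solid, circles) genes whose promoter windows overlap. The H2B line lies above in the pairs H2bc13/H2ac13, H2bc22/H2ac22 and H2bc12/H2ac12, and below in H2bc8/H2ac8, where H2ac8 was detected on only 2 of 6 controls.

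The rise was present at 5 h, and many members rose further by 15 h. Between 5 h and 15 h 26 of 41 members rose and 0 fell (17% of all probes rose and 16% fell), with a median of 0.56. Higher at 5 h and higher again at 15 h were 25 members (2.76% of all probes). By class, the step was passed by H1f2, 3 of 9 H2A, 11 of 14 H2B, 3 of 6 H3 and 8 of 11 H4 probes. With median centring in place of quantile normalization 16 rose and 1 fell: 1 H2A, 7 H2B, 1 H3 and 7 H4 probes rose, H1f2 did not pass, 1 H2A probe fell, and the H2A median was 0.02, against 0.37 with quantile normalization. With the authors' ratios 19 rose and 2 fell: 1 H2A, 8 H2B, 2 H3 and 8 H4 probes rose and 2 H2A probes fell. Between 15 h and 24 h limma called 0 members at an adjusted p below 0.05 (0.643% of all probes called, either direction), 4 had an unadjusted p below 0.05, and the median was -0.16. At 24 h 19 members were higher and 1 lower than at 5 h (18.6% of all probes higher and 17% lower). This split depended on the scaling, with 2 higher and 5 lower under median centring, and 4 and 4 with the authors' ratios.

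Replicate spread had structure. Control replicates 1 and 3 lay above the other 4 controls in 29 of 41 members, and 1 of them was the highest control in 36. Without both, 36, 36 and 34 members rose and 0 fell, with medians of 1.03, 1.61 and 1.42. At 24 h the third replicate was the lowest of its group in 6 of 9 H2A members and the highest in 13 of 14 H2B, 4 of 6 H3 and 8 of 11 H4 members. Each beadchip carried 2 controls and 1 array of every kainate time, and within all 3 beadchips 37 members were above the mean of their own controls at 5 h (31.8% of all probes), 36 at 15 h (32.7%) and 36 at 24 h (28.2%). Groups kept fixed positions on the chip and all controls have time 0, so chip position and hours in culture cannot be told apart from kainate. Each member value rests on a median of 25 to 68 beads, and the largest bead standard error was 9.86% of the signal.

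Names of single histone genes carry a limit. For 35 members the array's target identifier also names a gene, the same as the platform symbol for 29 and another histone gene of the same class for 6. The 6 include probes named H3c15, H4c9, H2ac23, H3c11, H3c2 and H2bc7. Histone genes of a class are nearly identical in their coding sequence and the probe sequences were not used here, so signal shared between paralogs cannot be told apart. Of 16 named probes that were not members, 13 were detected on 0 arrays. Just inside the rule lay H2bc1, H4c3 and H4c14, each detected on 4 arrays, and just outside it H3c7, H2ac6 and a second H2bc4 probe, each detected on 2 arrays.

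Replacement variants are histones that can be made outside S phase, mostly from polyadenylated mRNAs. Of 7 tested probes 5 rose and 1 fell at 5 h, 3 rose and 0 fell at 15 h and 2 rose and 0 fell at 24 h, with medians of 0.37, -0.02 and 0.24. Of all 14154 probes 17.9% rose and 20.8% fell at 5 h, 21.8% and 23.4% at 15 h and 21.1% and 21.9% at 24 h. H3f3b, which encodes H3.3, rose by 0.37 ± 0.13, 0.70 ± 0.13 and 0.63 ± 0.13. Cenpa, the centromeric H3, rose by 0.99 ± 0.27 at 5 h and 1.18 ± 0.27 at 15 h, and at 24 h its change of 0.64 ± 0.27 did not pass. Macroh2a1 rose by 0.62 ± 0.12, 0.45 ± 0.12 and 0.41 ± 0.12. H2ax, phosphorylated at DNA breaks, rose by 0.53 ± 0.12 at 5 h, and its values of -0.22 ± 0.12 at 15 h and -0.10 ± 0.12 at 24 h did not pass. At 24 h the call counts of this list turned to 0 higher and 1 lower under median centring.

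Factors that transcribe, process or degrade histone mRNA moved in both directions. Of 39 probes 14 rose and 11 fell at 5 h (17.9% and 20.8% of all probes). At 15 h 4 rose and 7 fell (21.8% and 23.4%), and at 24 h 9 rose and 5 fell (21.1% and 21.9%). The medians were 0.10, -0.08 and 0.05. Slbp, Npat, which activates histone gene transcription, and Casp8ap2 were detected on 0 of 15 arrays. Lsm10, a U7 snRNP protein, fell by 0.80 ± 0.09 at 5 h, with -0.34 ± 0.09 at 15 h and -0.40 ± 0.09 at 24 h. Cpsf2, of the cleavage complex, fell by 0.70 ± 0.09 at 5 h. The probes of Cstf3, of the cleavage stimulation factor used in polyadenylation, disagreed. ILMN_2703007 rose by 1.37 ± 0.10 at 5 h, 1.02 ± 0.10 at 15 h and 1.25 ± 0.10 at 24 h, while ILMN_2615837 had -0.28 ± 0.15 at 5 h, which did not pass, and fell by 0.53 ± 0.15 at 15 h (adjusted p = 0.0103) and by 0.42 ± 0.15 at 24 h (adjusted p = 0.0371). Tut7, a terminal uridylyl transferase, fell by 0.75 ± 0.12 and 0.45 ± 0.16 on its 2 probes at 5 h. Eri1, the exonuclease that trims histone mRNA ends, fell by 0.39 ± 0.10 at 15 h. At 24 h the split was 2 higher and 11 lower under median centring.

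Histone chaperones, which carry histones to DNA, were likewise mixed. At 5 h 8 of 29 probes rose and 3 fell (17.9% and 20.8% of all probes). At 15 h 6 rose and 5 fell (21.8% and 23.4%), and at 24 h 7 rose and 5 fell (21.1% and 21.9%). Under median centring the 24 h counts were 3 and 10. Nap1l5 rose by 2.23 ± 0.27 at 5 h. Spty2d1 was detected on all 9 kainate arrays and 0 controls, so no test is read from it. Mcm2, a subunit of the replicative helicase that also binds H3 and H4, rose by 0.89 ± 0.08, 0.51 ± 0.08 and 0.82 ± 0.08. On 1 of its 2 probes Hira, the H3.3 chaperone, fell by 0.67 ± 0.14 at 5 h, 0.70 ± 0.14 at 15 h and 0.49 ± 0.14 at 24 h, while the other had 0.20 ± 0.12, -0.11 ± 0.12 and 0.03 ± 0.12, none past the test.

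Cell cycle and DNA replication genes mostly rose at 5 h when no block term was fitted for the 5 h arrays. In that case more of them fell than rose between 5 h and 15 h. Of 74 probes 48 rose and 4 fell at 5 h (17.9% and 20.8% of all probes), with a median of 0.51. At 15 h 17 rose and 7 fell (median 0.20), against 21.8% and 23.4% of all probes. At 24 h 14 rose and 5 fell (median 0.08), against 21.1% and 21.9%. The 24 h counts were 3 higher and 13 lower under median centring. Between 5 h and 15 h 6 rose and 25 fell, with a median of -0.35, where the histone members had 26 and 0 with a median of 0.56. That split was 1 higher and 33 lower under median centring and 1 and 35 with the authors' ratios. With the block term of the 5 h arrays and control replicates 1 and 3, it was 14 higher and 12 lower. The median was then 0.041. In that fit, whose block no label gives, 29 rose and 5 fell at 5 h, with a median of 0.215. Cdk1, the mitotic kinase, rose by 1.53 ± 0.21 at 5 h and 0.80 ± 0.21 at 15 h, with 0.28 ± 0.21 at 24 h. Top2a, which untangles replicated DNA, rose by 1.25 ± 0.11, 0.90 ± 0.11 and 0.49 ± 0.11. E2f1, an activator of S phase genes, rose by 0.40 ± 0.07 at 5 h and fell by 0.66 ± 0.07 at 15 h and by 0.66 ± 0.07 at 24 h. Dut, which makes the dTTP precursor, rose by 0.48 ± 0.13 and then fell by 0.97 ± 0.13 at 15 h and by 1.15 ± 0.13 at 24 h.

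**Figure D5:**
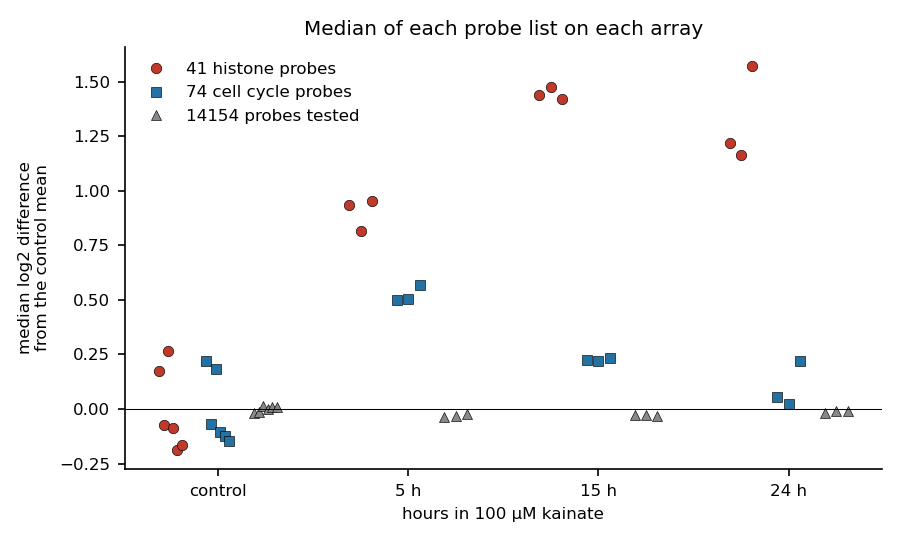
Median log2 difference from the control mean on each array, for the 41 histone probes (circles), the 74 cell cycle probes (squares) and all 14154 probes tested (triangles), by hours in kainate. Histone medians lie at 0.81 to 0.95 at 5 h and 1.42 to 1.48 at 15 h, cell cycle medians at 0.50 to 0.57 and 0.22 to 0.23.

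Markers of other cells moved on the same arrays. Of all probes 17.9%, 21.8% and 21.1% rose at 5 h, 15 h and 24 h, and 20.8%, 23.4% and 21.9% fell. Of 10 probes for dividing cells 9 rose at 5 h, 5 at 15 h and 2 at 24 h (0 under median centring), and 0 fell. At those times 10, 10 and 8 rose without control replicates 1 and 3. With the block term of the 5 h arrays 3, 10 and 8 rose. Their median at 15 h minus 5 h was -0.353, and 0.469 with that block term. The summed level of these probes (linear intensity) ranged from 834 to 1681 over the controls. It ranged from 2005 to 2101 at 5 h, from 1583 to 1617 at 15 h and from 1250 to 1467 at 24 h. Ccna2, a defining marker, was detected on 0 arrays and Bub1 on 1. The sum of neural progenitor markers ranged from 2935 to 3393 over the controls, from 7083 to 8180 at 5 h, from 8173 to 8890 at 15 h and from 6792 to 7049 at 24 h, and 5, 7 and 3 of 8 probes rose. Astrocyte markers had sums between 12542 and 12857 in the controls, between 16308 and 16562 at 5 h, between 23602 and 25544 at 15 h and between 18803 and 24082 at 24 h, and 4, 5 and 4 of 6 probes rose, with 1 lower at 24 h. Under median centring 2 rose and 1 fell at 24 h. For neuron markers the sums lay between 20764 and 24428 in the controls, between 23383 and 25421 at 5 h, between 15690 and 16546 at 15 h and between 13612 and 16534 at 24 h, and 1, 5 and 6 of 9 probes fell. The part of these cells in the histone changes was not tested.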

How the data were processed

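Transcripts were measured on Illumina mouse bead arrays, 15 in all on 3 beadchips, from total RNA amplified into biotin-marked cRNA (MessageAmp), according to the labels' protocols. The authors exported the mean bead intensity of each target from BeadStudio 3.2.3 with no normalization, per the file headers. The deposited detection score is a fraction, the complement of the p-value of detection over negative controls. The authors' deposited normalized table gives a linear ratio: judged from its values, array-median-scaled signal relative to the control median. A further 72 columns of 9 arrays matched no sample and were not used.

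The log2 values were computed here from the deposited intensity: background correction with detection p-values and an offset of 16, then quantile normalization (limma 3.58.1, R 4.3.3). A bright target (signal above 1000) that was scored below full detection on some arrays was excluded. Probes with a detection score above 0.95 on at least 3 arrays were tested, 14154 in all. The 15 arrays were fitted with 4 group means (limma's lmFit and eBayes), with 6 contrasts, an F test, two-sided p-values and Benjamini-Hochberg adjustment at 0.05. The fit was tested on simulated data. Errors of changes are the model's standard errors, 3 arrays per kainate time against 6 controls. The number of arrays limits the precision. Replicates are not stated to be separate cultures, so p-values reflect the spread among these samples alone, which may be technical.

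Symbols came from the platform annotation, updated to the reference gene table of GRCm38.p6, which gave the coordinates. Promoter windows came from RefSeq. The members and gene lists were chosen with earlier results of these data known. Values on every array are given for the 10 members with the smallest F test p, the brightest of each class and those that did not follow the rest, and of each other list the 4 probes with the largest change are named together with fixed regulators. Python 3.11.15 and matplotlib 3.10.9 drew the figures. Alternatives were the scaling, the authors' ratios, the offset, the background correction, the detection filter, the beadchip as a block, the 2 controls that stand apart and each array left out; the scaling of the other lists, the classes and the markers was added after the data were seen.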

Additional observations from a re-analysis of the deposited data

Results flagged for a closer look

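The change from control differed between kainate times for many members, by the test of the difference itself. Between 5 h and 15 h 26 of the 41 histone probes passed it (17% of all probes higher and 16% lower). Between 5 h and 24 h 20 passed it (18.6% of all probes higher and 17% lower). For the probes described array by array, the log2 difference (15 h minus 5 h) was 0.57 for H3c11, 1.04 for H2bc11, 0.65 for H2bc22, 1.23 for H4c1, 0.77 for H2bc9, 0.97 for H4c8, 0.91 for H2bc13, 0.80 for H2bc15, 0.88 for H1f2 and 0.77 for H2bc4. The H2bc7 probes ILMN_2719202 and ILMN_2742592 differed by 0.85 and 0.97. No single control array stood apart from the other 5 by Dixon's test at its 95% critical value in any of the 41 members. The test looks for 1 array that stands alone. It can miss control replicates 1 and 3, which lay together above the other 4 in 29 members.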

How the results depend on the processing

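Against control, 30 to 36 of 41 members were called under the alternatives run, the 30 at 5 h with the block term named below, and 33 or 34 of 38 with detection on at least 6 arrays. The median change of the members was 1.16 at 15 h and 0.79 at 24 h with the authors' ratios, 1.21 and 1.03 with an offset of 50, and 1.20 and 0.91 with no background correction. Median centring moved the median of all probes by -0.18 at 24 h minus control, -0.13 at 15 h minus 5 h, -0.17 at 24 h minus 15 h and -0.30 at 24 h minus 5 h, and the authors' ratios by -0.10, -0.08, -0.10 and -0.19.

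Comparisons between kainate times moved most, and the cause was not tested. Under median centring 17 members were called at 15 h minus 5 h and 7 at 24 h minus 5 h, and the median was -0.41 at 24 h minus 15 h and reversed to -0.026 at 24 h minus 5 h. With the authors' ratios 2 were called at 24 h minus 15 h and 8 at 24 h minus 5 h, with medians of 0.34 at 15 h minus 5 h and 0.037 at 24 h minus 5 h. With a block term shared by the 5 h arrays and control replicates 1 and 3, the medians were 0.61 at 5 h minus control, 0.97 at 15 h minus 5 h and 0.74 at 24 h minus 5 h. At 24 h minus 5 h the sign turned in 17 of 41 members under median centring, 12 with the authors' ratios and 5 with the 5-array block. Under median centring H2bc21 ILMN_1253851 (-0.015), H3c11 ILMN_2698519 (-0.05), H2bc12 (-0.051) and H2bc22 (-0.015) turned and did not pass. All of these had passed as higher in the main fit. H2ac22 (-0.549) and H2ac13 (-0.381) turned and passed as lower, but had not passed in the main fit. With the authors' ratios H2ac22 (-0.455) did the same. With the 5-array block H2ac18 (0.064) turned and did not pass, where it had passed as lower in the main fit. The 24 h calls of H2ac12 and H2ac10 were lost under median centring (0.022 and 0.281) and with the authors' ratios (0.086 and 0.343).

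Leaving out each array in turn gave 32 to 36 calls at 5 h, 34 to 36 at 15 h, 32 to 35 at 24 h, 23 to 30 at 15 h minus 5 h, 0 at 24 h minus 15 h and 11 to 21 at 24 h minus 5 h, with 11 without 5 h replicate 2. The medians ranged over 0.847 to 0.954, 1.392 to 1.512, 1.155 to 1.424, 0.508 to 0.595, -0.247 to -0.122 and 0.328 to 0.384 in that order, and the F test count over 34 to 37. Kainate arrays of the same number share a beadchip, and their deviations from the group means correlated by -0.114 to 0.288. With controls of their own beadchip the correlations ranged from -0.275 to 0.32. For replicates 1 and 3 at 5 h and 15 h they were 0.188 to 0.32. The numbers are not taken as pairs, and the beadchip was fitted as a block. With the replicate block 34, 35 and 35 members were called against control, 27 at 15 h minus 5 h, 0 at 24 h minus 15 h and 18 at 24 h minus 5 h.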

Other observations

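Other histone-named probes outside the naming rule gave further values. H2bu2, an H2B gene on chromosome 11, read 7.98 to 8.65 on the controls, and its log2 changes were 0.82 ± 0.14 at 5 h, 0.78 ± 0.14 at 15 h and 0.76 ± 0.14 at 24 h, all past the test. H2aw, its neighbour on chromosome 11, rose by 0.45 ± 0.14 at 5 h and 0.38 ± 0.14 at 15 h, and its 24 h change of 0.06 ± 0.14 did not pass. H4f16, on chromosome 6, was detected on 6 arrays, and its changes of -0.30 ± 0.12, 0.05 ± 0.12 and 0.03 ± 0.12 did not pass. H2bl1, on chromosome 13 away from the clusters, had changes of -0.10 ± 0.14, 0.08 ± 0.14 and 0.11 ± 0.14 that did not pass. All are from limma's test over the 14154 probes.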
